A study of Mus musculus with 2 samples.

Results

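Hepatocytes keep triglyceride in lipid droplets, and 10 genes that encode the coat of the droplet or the first step of its lipolysis were followed between livers of fasted mice and of mice upon feeding. The set is defined by gene names, with no threshold on values, though it was proposed with earlier results of these arrays known: the perilipins Plin2, Plin3, Plin4 and Plin5, the CIDE family genes Cidea, Cideb and Cidec, and Pnpla2, which encodes adipose triglyceride lipase (ATGL), with its regulators Abhd5 and G0s2. They are 10 of 20652 genes that had a probe on the array, and all 10 were measured, by 14 probes, each well above background on both arrays. The fasting group was a pool of the livers of 3 male mice fasted for 16 h (14 to 16 h overnight in another label), and the feeding group was a pool of the livers of 3 male mice. The labels give the second group in one place as fed ad libitum and in another as fed after the fast. No genotype or treatment other than food is given in the labels, and the study's methods describe C57BL/6J mice of about 8 to 12 weeks. Each pool was hybridised to 1 one-colour Agilent array, so no replicate stands behind any change given here and none was tested, and fewer cells of a type cannot be told apart from less RNA per cell.

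Perilipins coat the droplet and limit the access of lipases to it. PLIN2 is the main coat protein of the hepatocyte droplet, PLIN3 moves between cytosol and droplet, PLIN4 coats newly formed droplets and PLIN5 links droplets to mitochondria. CIDE proteins sit where droplets touch, pass lipid between them and so make large droplets, and CIDEB also serves the lipidation of very low density lipoprotein. ATGL removes the first fatty acid from triglyceride, ABHD5 (CGI-58) is its coactivator, and G0S2 binds ATGL and inhibits it.

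The largest increase among the 10 genes was that of G0s2, the inhibitor of ATGL, and the largest decrease was that of Plin4. The processed signal of a spot, its brightness after background subtraction, is given here with the error that the scanner software attaches to it. For G0s2 it was 703 ± 70.4 upon fasting and 2026 ± 203 upon feeding. After quantile normalisation G0s2 was 3.05-fold higher upon feeding, a change of 1.61 on the log2 scale. For Plin4 the fasting array gave 1373 ± 137 and the feeding array 494 ± 49.4, and the normalised signal was 2.59-fold lower upon feeding (-1.37 on the log2 scale). In both genes the difference between the arrays was far wider than these errors, which amount to 0.20 on the log2 scale for a difference. It was also wider than the spread of replicate spots in the middle tercile of genes by signal, to which both probes belong: the SD of a difference was 0.09 there, from 111 probes spotted repeatedly, so the change was 17.5 such SDs for G0s2 and 14.9 for Plin4. Neither error includes differences between mice. Among the 16346 genes measured, 0.918% increased more than G0s2 and 2.62% decreased more than Plin4. These shares bound the changes of probes dim on 1 array. Without that bound, 2.28% increased more than G0s2 and 2.72% decreased more than Plin4. The shares given below for the other genes depend on this rule as well. Past the 2-fold threshold of the study's methods, 1 of the 10 genes was higher and 1 was lower upon feeding, and over all measured genes 3.29% were higher and 4.62% were lower by as much, 7.91% in all. With 10 genes, counts of 1 in each direction are near this background and do not set the group apart. Of the 7 of them in the brightest tercile of genes (Plin2, Plin3, Plin5, Cideb, Cidec, Pnpla2 and Abhd5) 0 were past 2-fold, where 2.09% of that tercile were higher and 3.71% lower, 5.8% in all.

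The sequences before the starts of the genes that changed most are shown as the stretch next to the point where their transcription begins. They are the 250 bases before the annotated start, from RefSeq (GRCm38.p6), all on the minus strand and written 5′ to 3′. The box CACCC, read on either strand, is in capitals in G0s2, and TATAA alone is in capitals in Plin4, which also held 2 matches to CACCC. Cidec, described further on, has 2 annotated starts, neither with CACCC nor TATAA in this window.
G0s2, chr1:193273189-193273438: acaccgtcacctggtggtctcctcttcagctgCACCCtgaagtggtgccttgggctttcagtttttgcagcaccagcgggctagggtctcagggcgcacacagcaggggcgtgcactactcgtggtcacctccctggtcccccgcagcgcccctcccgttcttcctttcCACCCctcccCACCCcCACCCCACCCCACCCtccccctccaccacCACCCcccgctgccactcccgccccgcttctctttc
Plin4, chr17:56109783-56110032: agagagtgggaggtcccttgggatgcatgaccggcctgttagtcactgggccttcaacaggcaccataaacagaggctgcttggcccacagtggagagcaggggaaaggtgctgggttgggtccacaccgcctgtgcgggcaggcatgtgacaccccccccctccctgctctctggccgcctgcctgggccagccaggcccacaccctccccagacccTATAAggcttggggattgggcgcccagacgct
Cidec, upstream start, chr6:113435761-113436010: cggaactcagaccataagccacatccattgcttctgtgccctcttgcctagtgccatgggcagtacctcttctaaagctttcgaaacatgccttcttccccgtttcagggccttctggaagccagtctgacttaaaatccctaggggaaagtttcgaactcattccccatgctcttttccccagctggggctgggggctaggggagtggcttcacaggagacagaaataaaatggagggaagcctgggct
Cidec, downstream start, chr6:113434765-113435014: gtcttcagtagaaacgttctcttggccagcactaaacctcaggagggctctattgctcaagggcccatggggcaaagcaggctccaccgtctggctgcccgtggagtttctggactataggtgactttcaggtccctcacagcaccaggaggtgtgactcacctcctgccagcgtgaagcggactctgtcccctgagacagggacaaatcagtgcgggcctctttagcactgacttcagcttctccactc
The G0s2 sequence held 7 matches to CACCC, a motif of Krüppel-like factors that was picked after the sequence was seen. Of the 32851 promoters in the RefSeq table, 0.0974% held at least as many and 52.0% held at least 1, and among the 11 promoters listed for the genes studied 6 did (those of G0s2, Plin3, Plin4, Plin5 and Pnpla2). TATAA lay 32 bases before the start of Plin4 and was found in 22.8% of promoters. The PPAR response element (a direct repeat of AGGTCA with 1 base between), a looser form with the fourth base of each hexamer free, the forkhead motif GTAAACA, the E-box CACGTG, the sterol regulatory element TCACNCCAC and the palindromic glucocorticoid response element were searched on both strands in the 11 promoters that the table lists for 9 of the 10 genes. None of them was found there, and the shares of all promoters with these letters ran from 0.00913% to 6.02%. The single hexamer AGGTCA, which is contained in the PPAR response element, was present in 3 of the 11, those of Plin2, Abhd5 and 1 start of Plin5, against 14.0% of all promoters. These windows are short, and an absent match says nothing of elements elsewhere.

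**Figure D1:**
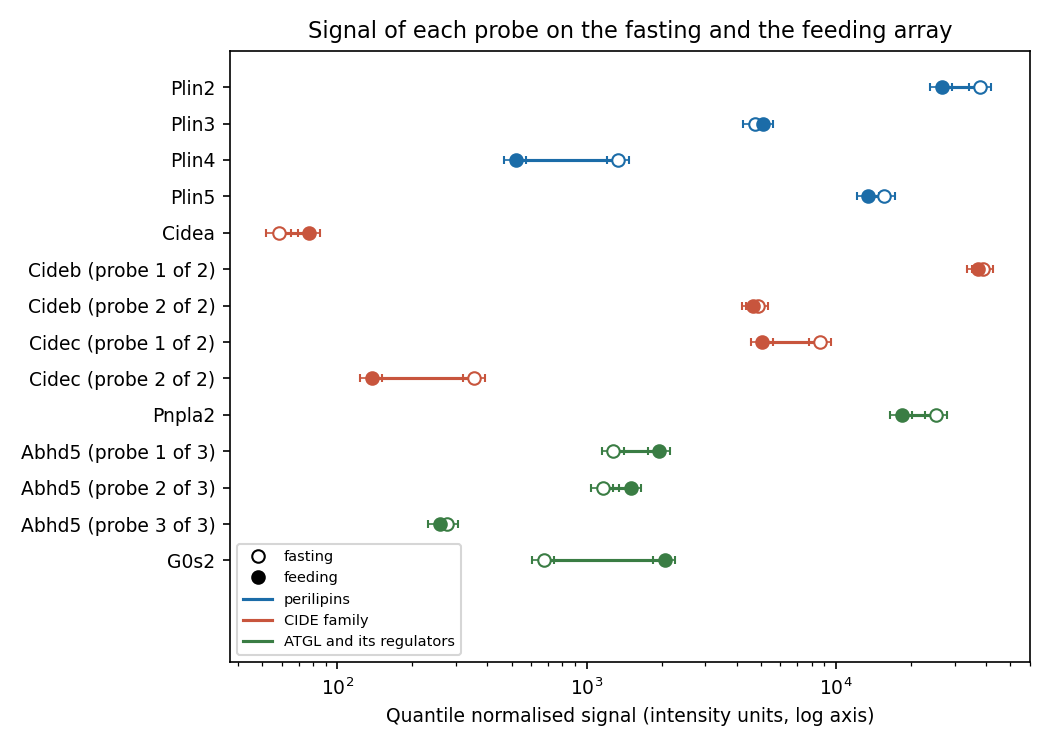
Quantile normalised signal of each of the 14 probes (log axis, intensity units) on the fasting array (open points) and the feeding array (filled points), coloured by family, with the scanner software's error of the signal as bars. G0s2 lies to the right upon feeding and Plin4 and both Cidec probes to the left, while the error bars of the 2 arrays overlap for Plin3, Plin5, both Cideb probes and the dimmest Abhd5 probe.

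Among the perilipins, only Plin4 was past 2-fold, lower upon feeding, where 4.62% of all measured genes were. Plin2, the usual droplet coat of the liver cell, gave a processed signal of 38667 ± 3867 upon fasting and 26248 ± 2625 upon feeding. Its normalised signal was 1.43-fold lower upon feeding (-0.52 on the log2 scale), and 12.5% of measured genes decreased more. Plin5, the perilipin at mitochondria, gave 15804 ± 1580 upon fasting and 13447 ± 1345 upon feeding, a normalised change of -0.21, and 27.5% of genes decreased more. Plin3 gave 4799 ± 480 and 5025 ± 502 in the same order, a normalised change of 0.11, and 37.9% of genes increased more. The changes of Plin5 and Plin3 are about as large as or smaller than the software's error of a difference (0.20), and when quantile normalisation was replaced by median scaling of the arrays Plin5 changed by 0.00. For Plin2 the change was -0.32 under that scaling and -0.56 under a normexp background correction, a model of the background that keeps dim signals positive. Plin4 and Plin5 are next to each other in the genome with 0 genes between them in the RefSeq table, and their changes differed by -1.16 on the log2 scale, Plin4 having the greater decrease.

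Of the CIDE genes, Cidec (also called Fsp27), whose product makes large droplets, was lower upon feeding, and its probes differed in how far. The brighter probe gave 8765 ± 877 upon fasting and 5018 ± 502 upon feeding, 1.71-fold lower after normalisation (-0.77), and 7.11% of genes decreased more. The dimmer probe gave 372 ± 37.4 and 127 ± 12.8, 2.58-fold lower (-1.37). Both probes are assigned to the same transcript, so what part of the gene each reads is not given here. With the brighter probe, which represents the gene here, Cidec was short of 2-fold, and with the mean of its probes it was past it (-1.07), which makes 2 of the 10 genes lower in place of 1. The difference between the probes, -0.60, was larger than the spread of replicate spots.

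Cideb, the CIDE gene that serves lipoprotein secretion, hardly differed between the arrays. Its probes gave 39555 ± 3956 and 4931 ± 493 upon fasting and 36643 ± 3664 and 4583 ± 458 upon feeding, changes of -0.07 and -0.06, both within the software's error of a difference. With scaling by the median the brighter probe changed by 0.12, so no direction can be given. With quantile normalisation and the brighter probe of each gene, the changes of Cidec and Cideb differed by -0.71 on the log2 scale. Cidea, a gene best known from brown fat and from fatty liver, was the dimmest of the group. It gave 63.0 ± 7.09 upon fasting and 71.5 ± 7.28 upon feeding over local backgrounds of 35.0 and 22.2. Its change was 0.40, with 17.5% of genes increasing more, and, under the normexp correction, 0.17, against an SD of 0.18 for replicate spots of the dimmest tercile of genes.

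The lipase and its regulators moved in different directions. Pnpla2, the ATGL gene, gave 25559 ± 2556 upon fasting and 18338 ± 1834 upon feeding, 1.38-fold lower after normalisation (-0.46, or -0.24 with scaling by the median), and 14.4% of genes decreased more. G0s2, its inhibitor, was 3.05-fold higher, as given above, so that the change of G0s2 exceeded that of Pnpla2 by 2.07 on the log2 scale. Abhd5, its coactivator, was read by 3 probes. The brightest gave 1311 ± 131 upon fasting and 1929 ± 193 upon feeding, 1.53-fold higher (0.61), and 9.74% of genes increased more. The second gave 1188 ± 119 and 1474 ± 147 (0.37), and the dimmest gave 292 ± 29.4 and 243 ± 24.3 (-0.10). The probes of Abhd5 thus ranged over 0.71 on the log2 scale, with the dimmest within the software's error of 0, and the mean of the probes changed by 0.29. With the brightest probe of each gene, the change of Abhd5 exceeded that of Pnpla2 by 1.07. In the plot of changes by setting, median scaling raised the change of every one of the 10 genes, least for Cidea (from 0.40 to 0.42), and scaling by the 75th percentile lowered that of Cidea (to 0.29) and raised the others, while the choice of probe moved Cidec and Abhd5 most.

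**Figure D2:**
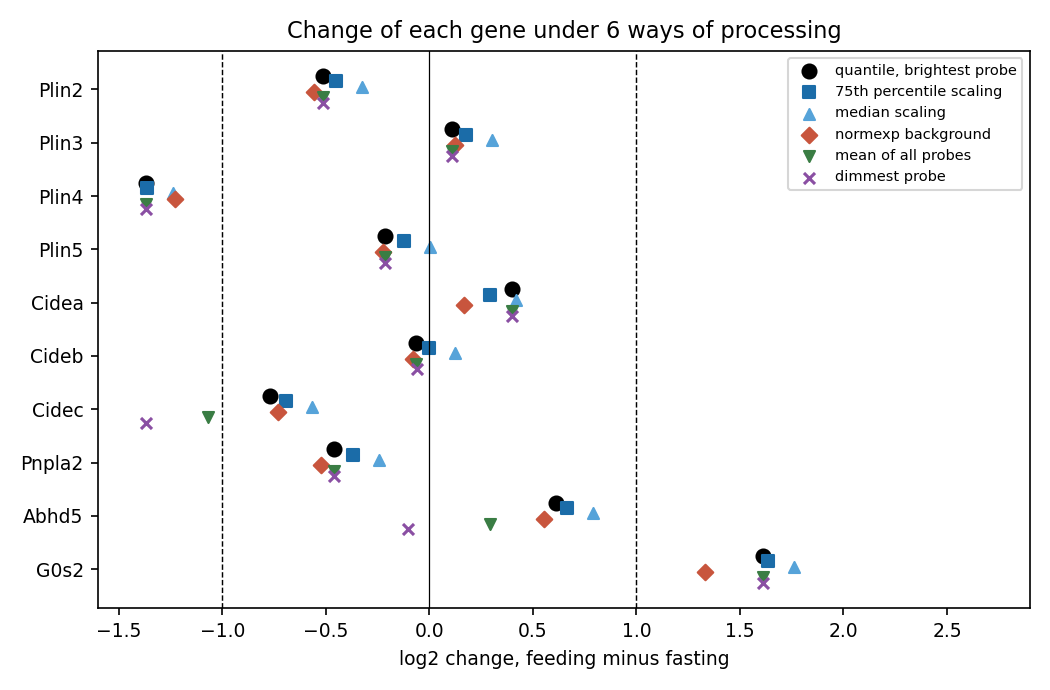
log2 change (feeding minus fasting) of each of the 10 genes under 6 ways of processing; dashed lines mark 2-fold. G0s2 stays above the upper line, between 1.33 and 1.76, and Plin4 below the lower line, between -1.37 and -1.23, while Cidec crosses it with the dimmer probe (-1.37) or the mean of its probes (-1.07).

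Beyond G0s2 and Plin4 the size of the changes was graded. At a threshold of 1.5-fold, 2 genes were higher (G0s2 and Abhd5) and 2 lower (Plin4 and Cidec), where 10.5% and 10.6% of all measured genes were, 21.1% in all. At 3-fold, G0s2 alone remained higher and 0 were lower, against 0.967% and 1.9% of all genes, 2.87% in all. The other 6 genes, Plin2, Plin3, Plin5, Cidea, Cideb and Pnpla2, were within 1.5-fold. The median change of the 10 genes was -0.14 and that of all measured genes was 0.00, and the median size of change, regardless of direction, was 0.49 for the 10 and 0.26 for all. The values for all genes include genes dim on 1 array, whose changes are bounded and can count as 0. None of the 10 is such a gene, so these medians are not of like genes.

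**Figure D3:**
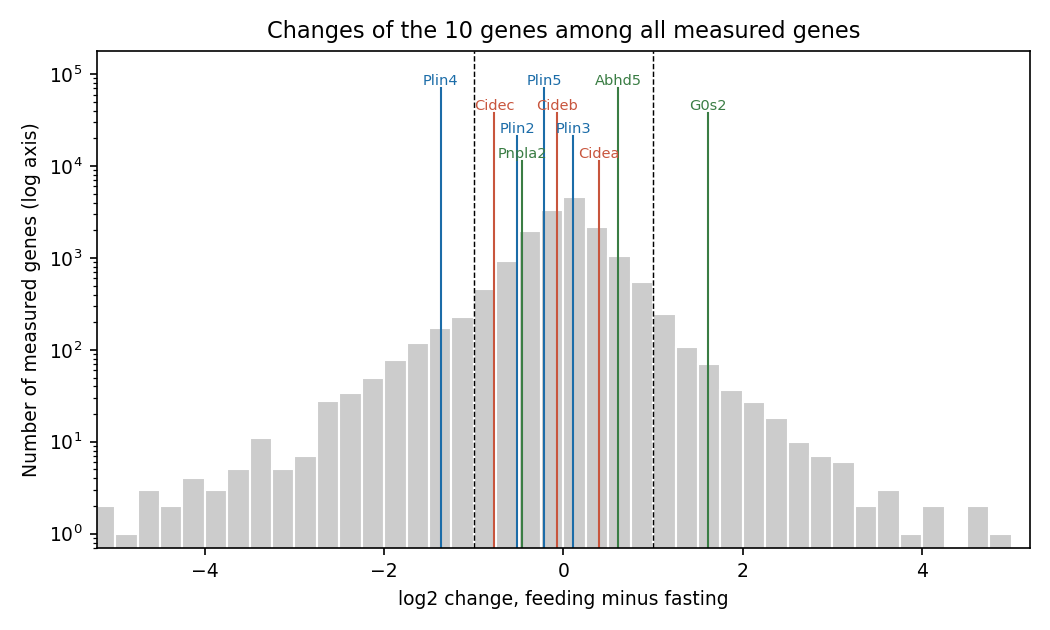
Histogram of the log2 change (feeding minus fasting, x axis) of the measured genes (count on a log axis), with a labelled line at each of the 10 genes, coloured by family as in the plot of signals; the heights of the lines carry no value. Plin4 at -1.37 and G0s2 at 1.61 lie outside the dashed 2-fold lines, the other 8 genes inside.

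Other genes of the droplet and of lipolysis, 38 in a list that was written with earlier results of these arrays known, had a median change of 0.00 over the 37 measured, and 1 was past 2-fold upward and 0 downward, where 3.29% and 4.62% of all measured genes were. The gene past 2-fold was Pnpla3, an ATGL relative that is bound to lipid droplets and known as a target of SREBP1c, with processed signals of 26.1 upon fasting and 182 upon feeding, a change of 2.99. The fasting signal was called well above background but was under that array's median local background of 30.2, so the size of the change is uncertain. Its second probe was not well above background upon fasting and changed by 1.66 with no bound applied. The enzymes that act after ATGL moved less than Pnpla3. Lipe, which encodes hormone-sensitive lipase, was dim (53.9 and 31.3) and changed by -0.55. Mgll, which encodes monoacylglycerol lipase, changed by -0.15 with its brightest probe (20411 and 18248) and by 0.07 with the next. Hilpda, which encodes another inhibitor of ATGL, gave 539 and 386 (-0.33), and its second probe changed by -0.30, where G0s2 changed by 1.61. Plin1, the perilipin of adipocytes, was not well above background upon fasting (3.32) and was so upon feeding (9.77), and no fold is given.

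Several of the genes, Plin2, Plin4, Plin5, Cidec, Pnpla2 and G0s2 among them, are known targets of PPARα, the fatty acid receptor that is active in the fasted liver. In a list of 25 other PPARα targets the median change was -0.50, and 22 changed below 0, 8 of them past 2-fold, and 0 were higher past 2-fold (4 lower past 2-fold with scaling by the median), where over all measured genes 4.62% were lower and 3.29% higher. G0s2 thus differed in direction from the list's median, whereas Plin4, Cidec, Plin2 and Pnpla2 had its sign. Ppara itself gave 9971 upon fasting and 5750 upon feeding (-0.78), and its other probes changed by -0.56 and -0.72. Pparg, the receptor that governs Plin4, Cidec and G0s2 in adipocytes, gave 1456 and 2039 (0.54). Foxo1, whose product induces the ATGL gene during fasting, gave 6015 and 2708 (-1.12), with -1.16 for its second probe. Srebf1, the lipogenic regulator that feeding induces, changed by 3.15. Of the 15 regulators listed, 1 was higher (Srebf1) and 2 lower (Foxo1 and Ppargc1a) past 2-fold, with a median of 0.33. Ppargc1a had the largest change of the list, with 1434 upon fasting and 135 upon feeding (-3.26), and -3.48 for its second probe. With median scaling 2 were higher and 1 lower and the median was 0.53, and with the mean of all probes the median was 0.15. The plot of the 10 genes beside these lists shows the spread of each.

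**Figure D4:**
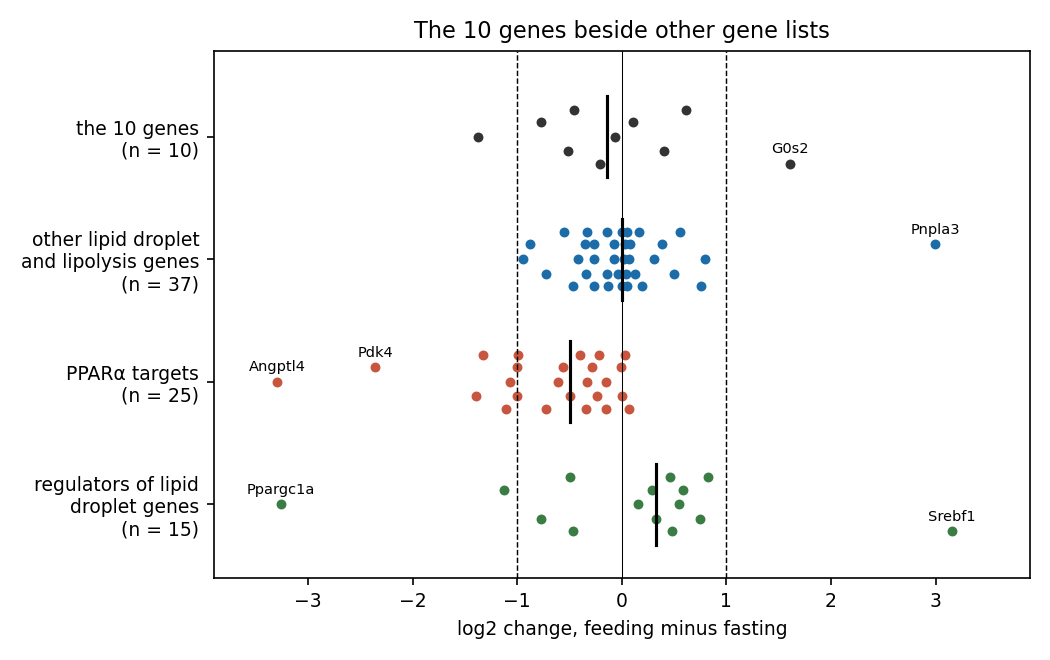
log2 change (feeding minus fasting) of the 10 genes and of 3 other gene lists, 1 point per measured gene, with vertical bars at the medians and dashed lines at 2-fold; genes that changed by more than 1.5 on the log2 scale are named, and vertical scatter carries no value. The PPARα targets lie to the left, with a median of -0.50, and the other droplet genes lie about 0.

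Over the whole arrays, the share of spots well above background was 63.1% for fasting and 72.3% for feeding, 0 spots were saturated, and the median local background was 30.2 and 22.5. At the spots of the 14 probes it ran from 23.8 to 41.6 and from 19.8 to 25.3, so that only Cidea had a signal near it. With scaling by the median 717 genes were higher and 649 lower past 2-fold, in place of 537 and 756, and the median of all genes was 0.09. The liver label was checked against 10 hepatocyte markers, all well above background, with Alb at 159091 and 141790. With quantile normalisation 0 of them were past 2-fold, Tat being the furthest changed (-0.97), and with normexp 1 was lower past 2-fold. Adipocytes also express Plin4, Cidea, Cidec and G0s2. Of 11 adipocyte markers, 4 (Adipoq, Lep, Ucp1 and Slc36a2) were dim on both arrays, the other 7 were well above background on at least 1, and the summed signal of the list, most of it from Fabp4 and Nrg4, was 17926 upon fasting and 12914 upon feeding. The processed signal of Nrg4 alone went from 7393 to 1919, and Fabp4 changed by -0.06. Of the 7 measured markers 3 changed below 0 and 3 above, with a median of 0.00. For skeletal muscle, Ckm, Myh4 and Myh1 of 7 markers were not well above background either, and the sums were 624 and 647. Most of each sum came from Pvalb, with processed signals of 618 and 579, and its other probe changed by -5.88. With the mean of all probes 1 muscle marker was lower past 2-fold, and with probes above background on both arrays 0 were. The sums are of quantile normalised signals. That of the 10 hepatocyte markers was 887034 upon fasting and 798662 upon feeding, with a normalised median change of -0.07 (0.10 with median scaling). For other liver cells the sums were 83489 and 62088 for 9 Kupffer cell markers, 38436 and 29418 for 8 endothelial markers, and 37310 and 31975 for 10 stellate cell markers, and the normalised medians were -0.41, -0.42 and -0.20 (-0.22, -0.20 and -0.02 with median scaling). In each of these 3 lists 1 gene was lower past 2-fold, where 4.62% of all measured genes were. They were C1qa (-1.68), Pecam1 (-1.04) and Rgs5, which was not well above background upon feeding and was at least 5.68-fold lower. With median scaling or normexp 0 endothelial markers were past 2-fold, and with normexp or with probes above background on both arrays 0 stellate cell markers were. Clec4f changed by -0.41 and Lrat by 0.24. The part of such cells in the decreases of Plin4 and Cidec was not tested.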

How the data were processed

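Total RNA from pooled livers was labelled with Cy3 and hybridised to the Agilent Whole Mouse Genome array, and spots were extracted with Feature Extraction 11.0.1.1. The deposited values are intensities per spot, not normalised between arrays: processed signal, its software error, raw median signal and local background. The authors' quantile normalisation and 2-fold filter were applied after this stage and were repeated here, in Python 3.11.15, without 1377 control spots and the outlier spots (123 fasting, 98 feeding). The deposited value table equals the local background in 44397 of 44397 spots of each array, within a relative tolerance of 1e-06, and was not used. Both arrays shared a slide and a scan. Their number limits the precision.

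Probes were named by RefSeq transcript (GRCm38.p6 table; 27218 of 39402 matched). The array design is for an older build, and no coordinates from it are printed. The promoter windows carry GRCm38.p6 coordinates. A gene is represented by its brightest probe and counts as measured if that probe is well above background on at least 1 array. A probe not well above background on 1 array is compared with the higher of its own signal and the lowest signal well above background there, and a bound under 1-fold counts as 0. Replicate-spot SDs come from probes spotted at least 5 times and well above background on both arrays. The 10 genes, 12 lists (3 families of the 10, 3 of related genes, 6 of cell markers) and the naming rule were chosen with earlier results of these data known. Named genes are the 10, set genes of each list, and listed droplet genes past 2-fold. Ppargc1a, Tat, Fabp4, Nrg4, Slc36a2, Myh1, Myh4, Pvalb, C1qa, Pecam1 and Rgs5 were named after their values were seen. The steps were tested on simulated data. Tried as alternatives were median or 75th percentile scaling, normexp (limma 3.58.1, R 4.3.3, offset 50, on the median signal), other probe rules, thresholds of 1.5-fold and 3-fold, and other filters.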

Additional observations from a re-analysis of the deposited data

How the results depend on the processing

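Of 100 values of the 10 genes under alternatives, 51 equal the reported value, by construction, since no probe of these genes fell short of the background filter and 7 genes have 1 probe. Of the 49 that moved, 46 kept their direction. The exceptions were Plin5 (0.00) and Cideb (0.12) with scaling by the median, and Abhd5 with its dimmest probe (-0.10), an alternative chosen after seeing the data. G0s2 ranged from 1.33 (normexp) to 1.76 (median scaling) and Plin4 from -1.37 to -1.23, both past 2-fold throughout. The number of the 10 genes lower past the threshold was 2 with the mean of all probes, with the mean of probes above background on both arrays and with the dimmest probe, in place of 1, and the added gene was Cidec. At 1.5-fold 2 were higher and 2 lower, and at 3-fold 0 were lower. For the other droplet and lipolysis genes, 3 were higher and 3 lower at 1.5-fold, 2 were higher without the lower bound for dim probes, and the median was 0.15 with scaling by the median. For the PPARα targets, scaling by the median left 4 lower and a median of -0.30, and the 3-fold threshold left 2 lower. Over all genes, normexp gave 215 higher and 312 lower genes, and no bound gave 876 and 760. The cause of these shifts was not tested beyond what each setting changes by construction. Probes named by another column could not be added, since the files used here pair probes with transcripts alone, and the series value table was not run, since it holds local background. No paired analysis was possible because each group has 1 array, and no replicate could be left out. Signal near background limits Cidea alone among the 10 genes.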
